A study of Mus musculus with 6 samples.

Results

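The glycolysis and hypoxia response genes are a set of 36 genes chosen by name: 18 glycolytic enzymes, 2 bifunctional regulators of glycolytic flux, 2 glucose transporters, 2 monocarboxylate transporters, the pyruvate dehydrogenase kinase Pdk1, 3 subunits of the hypoxia-inducible factors (HIF), 3 oxygen-sensing genes and 5 targets of hypoxia. All 36 were found by symbol among 55401 gene identifiers, and 34 of them passed the filter on low values (at least 1 FPKM in at least 3 of 6 libraries, which 15723 genes passed). FPKM, fragments scaled to transcript length and to the library's mapped fragments, is the authors' unit, in which levels of different genes can be compared. The libraries came from mouse bone marrow hematopoietic stem cells (HSCs), sorted as CD48-CD150+LSK cells, meaning lineage-negative cells with Sca-1 and c-Kit. There were 3 Emp1-deficient libraries (Emp1fl/fl,Tie2-Cre) and 3 control libraries (Emp1fl/fl), so both genotypes carried floxed alleles of Emp1, a tetraspan membrane protein gene. Cre under the Tie2 promoter acts in endothelium and throughout the blood lineages, so the deletion is not limited to HSCs, and with no Cre in the controls an effect of Cre itself cannot be told apart from loss of Emp1. Neither the age of the mice nor whether replicates were separate mice is given in the labels, so the p-values cover the spread among these libraries alone, and that spread may be technical.

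Glycolysis splits glucose into pyruvate, which lactate dehydrogenase reduces to lactate or pyruvate dehydrogenase passes to the mitochondria. HIF transcription factors pair an oxygen-sensitive alpha subunit (Hif1a, Epas1) with the stable partner Arnt. In normal oxygen, Egln prolyl hydroxylases mark the alpha subunits for destruction by the Vhl ubiquitin ligase, and in low oxygen HIF raises glycolytic genes and Pdk1, which holds pyruvate back from the mitochondria. HSCs are known for living in low-oxygen marrow and for relying on glycolysis when quiescent.

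Emp1 had 0.58, 0.70 and 0.27 FPKM in Emp1-deficient HSCs and 3.25, 2.64 and 4.32 FPKM in controls, lower in every Emp1-deficient library (log2 difference -1.53, SE 0.25, limma adjusted p = 0.0577, range 0.0185 to 0.188 over 14 alternatives). The HSC and progenitor markers given here were present. In Emp1-deficient and then control libraries, Procr ranged over 20.60 to 31.97 and 22.37 to 30.27 FPKM, Kit over 216.59 to 337.25 and 267.18 to 314.91, Slamf1 (CD150) over 20.07 to 27.56 and 15.12 to 20.78, Mecom over 40.93 to 47.25 and 40.28 to 48.65, Fgd5 over 2.23 to 5.42 and 4.23 to 7.45, Cd34 over 255.30 to 324.38 and 236.19 to 308.08, and Flt3 over 25.04 to 34.16 and 28.28 to 56.31 FPKM. Ly6a (Sca-1, 62.57 to 81.24 and 89.20 to 97.18 FPKM) and Hlf (32.90 to 43.31 and 47.08 to 64.57 FPKM) did not overlap. Cd48, which the gate sorts against, still had 22.89 to 47.25 and 26.05 to 49.62 FPKM. Summed marker lists of other cells ranged, in Emp1-deficient and then control libraries, over 345 to 1426 and 144 to 594 FPKM for B cells, 155 to 455 and 174 to 411 for neutrophils, 687 to 719.7 and 578 to 887 for erythroid cells, 542.5 to 900.4 and 638 to 827 for megakaryocytes, 17.7 to 25.9 and 25.6 to 48.7 for T cells, and 161 to 179 and 197 to 201 for endothelium. Of these lists, the endothelial sum alone did not overlap, and of its 8 genes Eng alone did not (84.63 to 89.81 and 118.12 to 121.71 FPKM), while Cdh5 stayed at or below 0.64 FPKM in every library. Of 9 T cell genes, 3 did not overlap, all lower, Cd4 (means 0.93 and 4.78 FPKM), Trbc1 (1.11 and 8.44 FPKM) and Trbc2 (0.273 and 2.53 FPKM). The largest part of the T cell sum was Lck (16.8 and 17.8 FPKM), which overlapped. Of 7 megakaryocyte genes, Gp1ba alone did not overlap and was higher (16.9 and 8.84 FPKM). Each gene of the B cell, neutrophil and erythroid lists overlapped. Relative depth, read from low single-exon genes, was 0.759 to 1.83 in Emp1-deficient libraries and 0.786 to 1.10 in controls, with Emp1-deficient replicate 3 the deepest. That library nevertheless had the fewest genes at 1 FPKM or more, 14334. Control replicate 2, with a relative depth of 0.786, had the most, 18048. The reason was not tested. Mitochondrially encoded genes took 5.41% to 6.98% of FPKM in Emp1-deficient libraries and 4.06% to 4.80% in controls (exact permutation p = 0.1, two-sided, the floor for 3 libraries a genotype), and the part of this in the results below was not tested.

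No member passed the test in Emp1-deficient HSCs against controls. By limma with Benjamini-Hochberg adjustment over 15723 genes, 0 of 34 tested members passed an adjusted p of 0.05 in either direction, beside 0.159% of all tested genes that were higher and 0.108% that were lower (25 and 17 genes, or 11 and 13 after rescaling to TPM). At an unadjusted p under 0.05 there were 4 members, 1 higher (Hk2, beside 6.5% of all genes) and 3 lower (P4ha1, Pfkm and Gapdh, beside 9.72%), or 11.8% of those tested beside 16.2% of all genes. The libraries of the genotypes did not overlap for 1 higher (Hk2, beside 8.91% of all genes) and 4 lower tested members (the same 3 and Arnt, beside 13.2%), or 14.7% beside 22.1% of all genes. The counts at an unadjusted p under 0.05 moved with the scaling. With median-of-ratios scaling 1 member was higher and 1 lower, beside 963 higher and 633 lower genes over the table, against 1022 and 1529 on the authors' scale. After quantile normalization 1 member was higher and 6 lower (20.6% of members, beside 16.3% of all genes), and with no filter on low values, which adds many low genes to the table, the shares were 11.1% and 6.89%. Whether the members' share lies below that of the table thus depends on the scaling and the filter. After rescaling to TPM 1 was higher and 3 lower, beside 736 and 1867 genes. Of the 34 members, 16 had a positive and 18 a negative log2 difference, with a median of -0.0071 beside -0.046 over all genes (0.092 beside 0.046 with median-of-ratios scaling). Differences are on the log2(FPKM + 1) scale, Emp1-deficient minus control, and understate changes of low genes. The 95% interval of the difference lay within 2-fold in either direction for 33 of 34 members (97.1%, beside 82.0% of all genes), the exception being P4ha1. These shares were not matched by level. The SE was 0.096 for Hk1 (mean 101 FPKM) and 0.23 for Egln1 (mean 2.2 FPKM). In bulk samples, fewer cells that express a gene and less RNA per cell cannot be told apart.

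**Figure D1:**
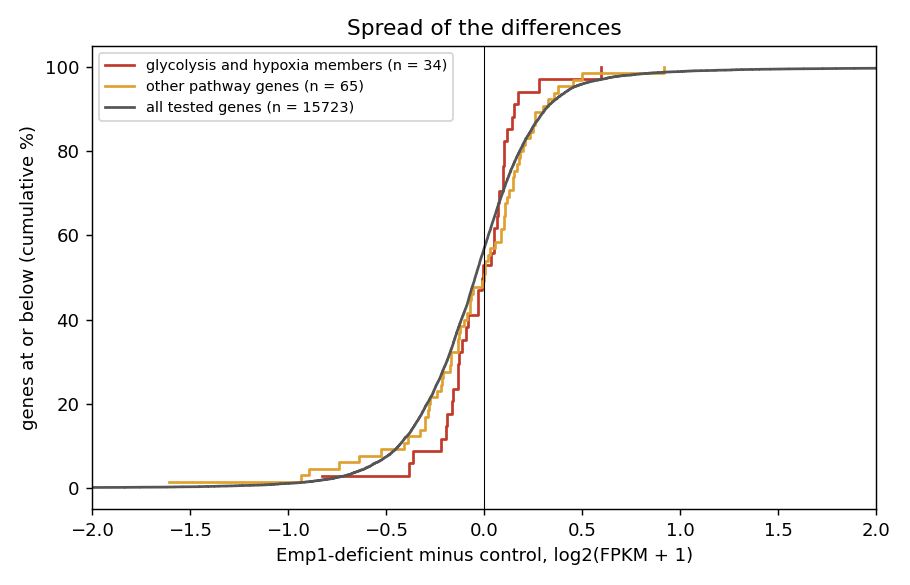
Cumulative share of genes (%) against the difference, Emp1-deficient minus control, in log2(FPKM + 1), for the 34 tested members, 65 other tested pathway genes and all 15723 tested genes. The members' curve is steep around 0, with a median of -0.0071, and ends at 0.59 (Hk2) and -0.83 (P4ha1).

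The promoter stretches of the 3 members with an unadjusted p under 0.05 and a single start in the RefSeq table are shown. The reason is that HIF binds sites with the core letters ACGTG or GCGTG. Pfkm has 4 starts there and is not shown. The Gapdh stretch lies inside the gene span given for Gapdh further on, which comes from GENCODE and starts further upstream. Each holds the 250 bases before the start of the RefSeq gene on GRCm38.p6, 5′ to 3′ on the gene's strand, and capitals mark ACGTG or GCGTG on either strand.
Hk2, chr6:82774455-82774704, minus strand: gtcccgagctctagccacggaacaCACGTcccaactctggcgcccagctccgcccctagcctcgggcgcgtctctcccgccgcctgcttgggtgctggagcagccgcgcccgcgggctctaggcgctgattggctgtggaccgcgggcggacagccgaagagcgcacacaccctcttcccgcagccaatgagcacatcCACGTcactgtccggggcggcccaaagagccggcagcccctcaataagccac
P4ha1, chr10:59323046-59323295, plus strand: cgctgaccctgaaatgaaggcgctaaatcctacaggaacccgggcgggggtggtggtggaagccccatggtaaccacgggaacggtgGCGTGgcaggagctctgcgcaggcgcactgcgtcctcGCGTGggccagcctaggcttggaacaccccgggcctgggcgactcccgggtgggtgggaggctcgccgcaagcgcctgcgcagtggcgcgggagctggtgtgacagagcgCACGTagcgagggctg
Gapdh, chr6:125165774-125166023, minus strand: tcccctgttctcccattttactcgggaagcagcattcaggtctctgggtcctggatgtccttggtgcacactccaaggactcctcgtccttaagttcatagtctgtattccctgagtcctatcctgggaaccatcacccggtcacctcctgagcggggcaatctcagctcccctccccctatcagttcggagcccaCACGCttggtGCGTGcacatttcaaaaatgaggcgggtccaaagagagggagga
The Hk2 stretch holds 2 matches of ACGTG, P4ha1 holds 1 of ACGTG and 2 of GCGTG, and Gapdh holds 2 of GCGTG. RefSeq gave promoters for 34 of the 36 members, in 48 stretches, since some genes have several starts. Some stretches of Aldoa, Eno1 and Pfkm overlap each other, so the same match can count in more than a single stretch. Either core occurred in 39 of these stretches (81.2%) and in 38.6% of all 32851 promoter stretches of that length. ACGTG occurred in 47.9% and 16.6%, and GCGTG in 56.2% and 28.2%, some stretches holding both. The E-box CACGTG, which reads as ACGTG on each strand, occurred in 12.5% and 6.02%. The members' stretches were also richer in G and C, with a median of 61.0% beside 52.4% and of 14 CG dinucleotides beside 6, and the part of this in the counts was not tested. A match is a run of letters and shows no binding.

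Ldha, which reduces pyruvate to lactate, was the most abundant member, with 1054.35, 945.10 and 963.04 FPKM in Emp1-deficient libraries and 993.62, 875.35 and 940.43 FPKM in controls. It ranked 93 of 15723 tested genes by mean level. Gapdh ranked 168, the aldolase gene Aldoa 169, the pyruvate kinase gene Pkm 194 and the enolase gene Eno1 233. At the other end, Epas1 and P4ha2 stayed below the filter and were not tested. The 18 enzymes together took 0.536%, 0.504% and 0.527% of all FPKM in Emp1-deficient libraries and 0.574%, 0.536% and 0.522% in controls. The ranges overlapped and the means of the summed level were close, 3937 ± 249 FPKM in Emp1-deficient HSCs and 3958 ± 258 FPKM in controls (SD, n = 3 each).

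**Figure D2:**
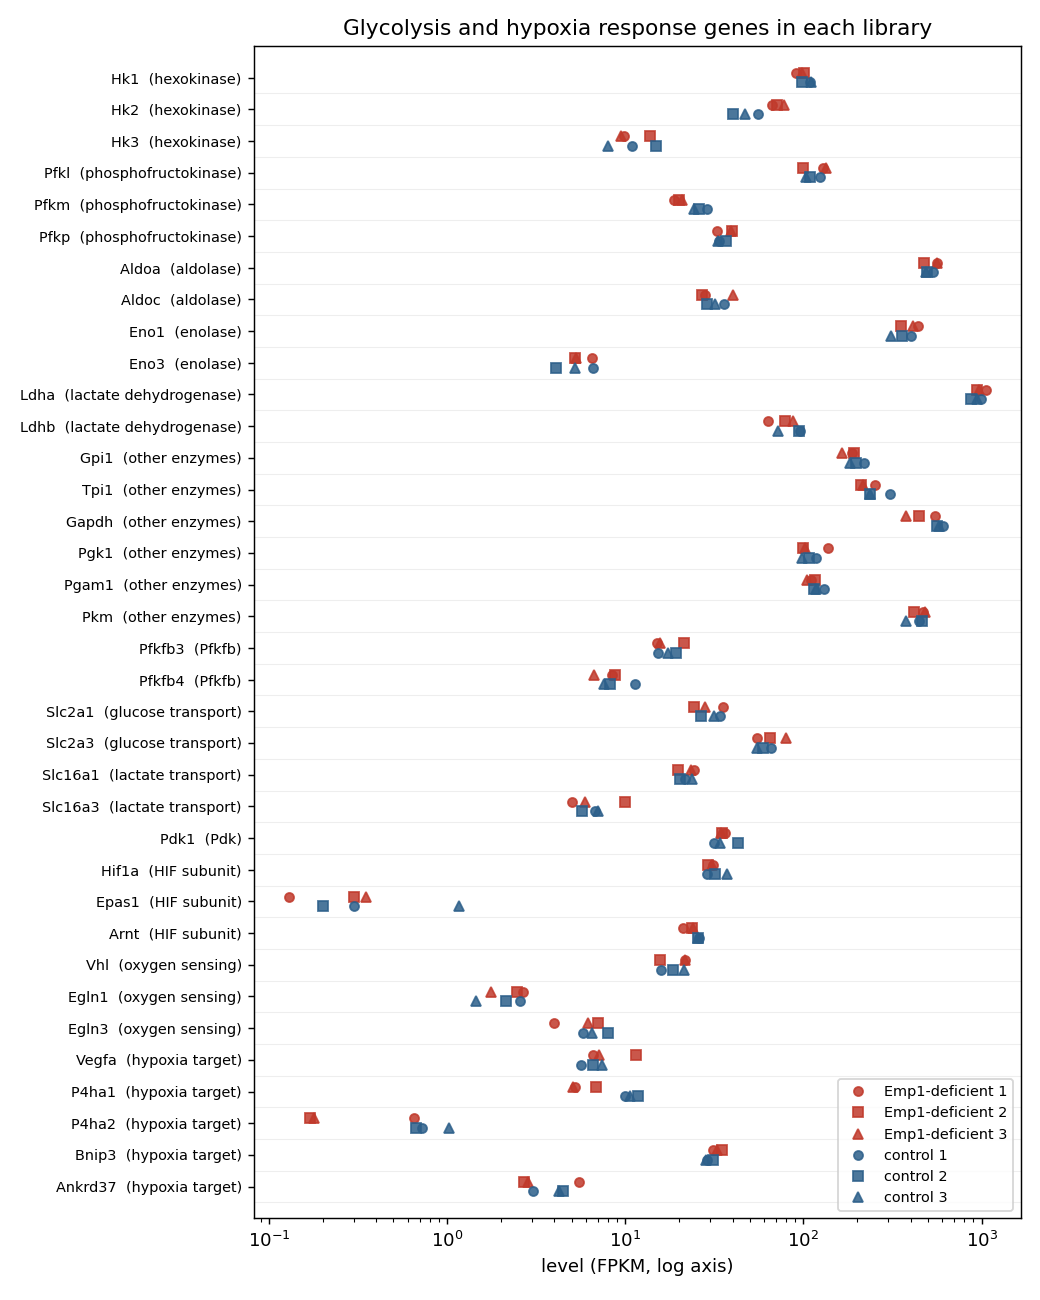
Level of each of the 36 members in each library (FPKM, log axis), by role, with Emp1-deficient libraries in red above control libraries in blue. Levels span from 0.13 FPKM (Epas1) to 1054 FPKM (Ldha), and the red and blue values do not overlap for Hk2, Pfkm, Gapdh, Arnt, P4ha1 and P4ha2. Some of these gaps are narrow on this axis. For P4ha2, below the filter, the nearest values are 0.65 FPKM (Emp1-deficient replicate 1) and 0.67 FPKM (control replicate 2).

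Hexokinases, which trap glucose in the cell by phosphorylating it, included the member with the largest positive difference, Hk2, although none of the 3 passed the test. Hk2 (ENSMUSG00000000628, mm10 chromosome 6, 82725025 to 82774454), the inducible isozyme, stood at 66.70, 71.07 and 77.97 FPKM in Emp1-deficient libraries and at 55.48, 40.09 and 47.25 FPKM in controls. Every Emp1-deficient library was above every control, and the mean was 1.51 times that of controls. The log2 difference was 0.59 (SE 0.13, 95% interval 0.30 to 0.89), with an unadjusted p of 0.00131 and, by limma, an adjusted p of 0.0899, above the threshold. When the test was limited to protein-coding genes of 400 bp of exon or more it passed (limma adjusted p = 0.0430, range 0.0430 to 0.306 over 15 alternatives).

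Hk1, the constitutive isozyme, had 90.87, 100.65 and 98.40 FPKM in Emp1-deficient libraries and 108.52, 97.82 and 110.52 FPKM in controls. Its libraries overlapped and its log2 difference was -0.13 (SE 0.096, 95% interval -0.34 to 0.090, limma adjusted p = 0.581). Hk3, the isozyme of myeloid cells, was lower in level, at 9.41 to 13.72 FPKM and 7.97 to 14.78 FPKM. As a share of the summed hexokinase FPKM, Hk2 made up 39.8%, 38.3% and 41.97% in Emp1-deficient libraries and 31.7%, 26.3% and 28.5% in controls. The shares did not overlap, with means of 40.04% ± 1.83 and 28.8% ± 2.75 (SD, n = 3 each). Hk1 made up 53.8% ± 0.756 and 64.3% ± 2.32, also without overlap, so that the Hk2 to Hk1 ratio was 0.744 ± 0.0440 in Emp1-deficient HSCs and 0.4495 ± 0.0542 in controls. No p is given for these shares, which combine members chosen with the results known and carry the lack of overlap of Hk2 itself. The summed hexokinase level overlapped, with 179.5 ± 10.5 FPKM and 164 ± 11.2 FPKM.

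Of the phosphofructokinases, which commit sugar to glycolysis, Pfkl, the liver-type subunit, was the most abundant, at 128.42, 99.21 and 133.89 FPKM in Emp1-deficient libraries and 123.31, 109.46 and 103.04 FPKM in controls. The libraries overlapped (log2 difference 0.097, SE 0.13, limma adjusted p = 0.781). Pfkm (chromosome 15, 98092589 to 98132451), the muscle-type subunit, stood at 18.75, 20.15 and 20.76 FPKM in Emp1-deficient libraries and at 28.73, 25.90 and 24.34 FPKM in controls, lower in each. The log2 difference was -0.39 (SE 0.11, 95% interval -0.64 to -0.13, unadjusted p = 0.00754, limma adjusted p = 0.153). Its share of phosphofructokinase FPKM was 11.3% ± 1.23 and 15.2% ± 0.224 (SD, n = 3 each), without overlap. Pfkm shares its locus with Senp1 on the other strand, and whether strand was used in counting is not stated, so reads of the pair may not be told apart. The same holds for Gapdh and Iffo1, Pfkp and Pitrm1, Tpi1 and Spsb2, and Hk1 and Hk1os. It also holds for Ankrd37 and Ufsp2, Slc2a1 and Gm12867, and Pfkfb3 and Gm10851. Arnt, Pkm, Slc2a3 and Slc16a1 share their locus with a gene on their own strand. Pfkp, the platelet-type subunit, differed by 0.0996 (SE 0.11), with 37.3 ± 3.90 FPKM and 34.6 ± 2.06 FPKM.

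**Figure D3:**
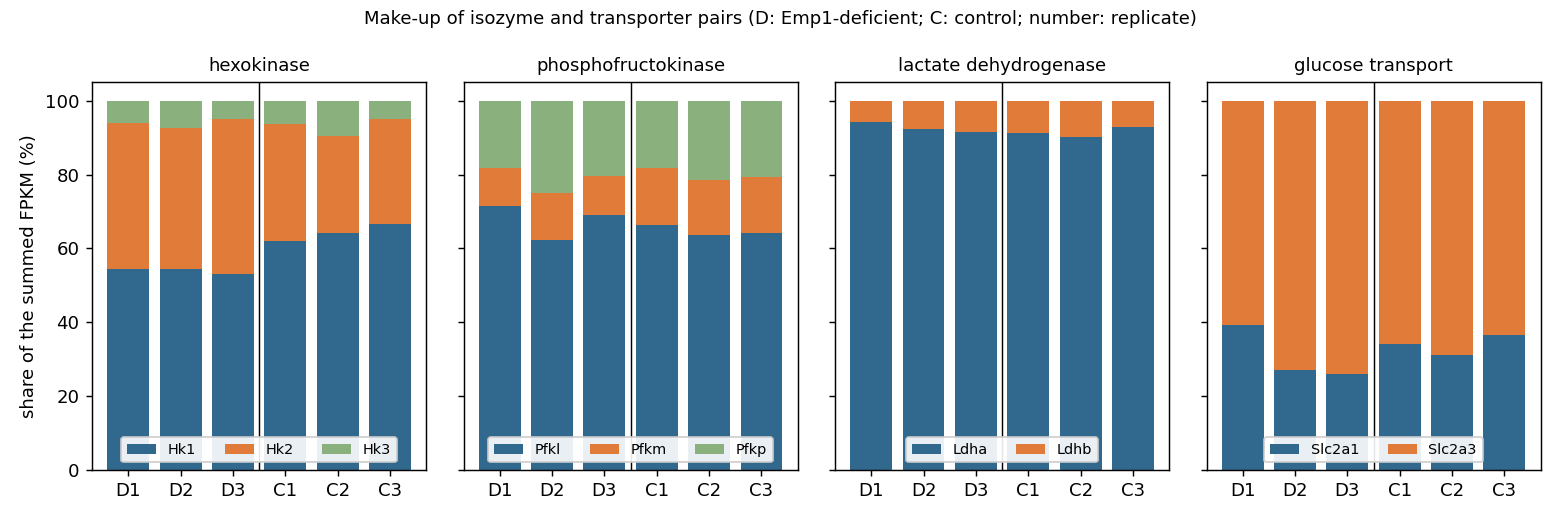
Share (%) of the summed FPKM of each isozyme or transporter group that each gene took, in Emp1-deficient libraries D1 to D3 and control libraries C1 to C3. The Hk2 segment is taller in all 3 Emp1-deficient libraries (38.3% to 41.97%) than in controls (26.3% to 31.7%), while the shares of Ldha and of the glucose transporters overlap.

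Among the enzymes of the middle and lower steps, Gapdh alone had an unadjusted p under 0.05. Gapdh (chromosome 6, 125161715 to 125166467), which oxidizes glyceraldehyde 3-phosphate, stood at 545.89, 447.87 and 377.50 FPKM in Emp1-deficient libraries and at 606.15, 562.32 and 576.59 FPKM in controls. Every Emp1-deficient library was below every control, with replicate 3 the lowest. The log2 difference was -0.36 (SE 0.14, 95% interval -0.68 to -0.045, unadjusted p = 0.0296, limma adjusted p = 0.249), and -0.23 without that library. Reads of Gapdh can be shared with 78 near-identical genes (at least 95% identity over at least 300 bases of coding sequence), which summed to 76.39, 62.75 and 33.60 FPKM in Emp1-deficient libraries and 49.20, 70.56 and 70.26 FPKM in controls. With these copies added, Gapdh stood at 622, 511 and 411 FPKM and at 655, 633 and 647 FPKM, still without overlap. Such copies were found for 10 members, and for the other 9 they summed to at most 7.43% of the gene's own level (Pgk1).

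The other enzymes of these steps overlapped between the genotypes. Gpi1, the isomerase after hexokinase, averaged 181.5 ± 14.8 FPKM in Emp1-deficient HSCs and 199.5 ± 17.5 FPKM in controls. Aldoa, which splits the sugar, had 562.02, 473.00 and 561.36 FPKM in Emp1-deficient libraries and 534.40, 494.32 and 487.21 FPKM in controls (log2 difference 0.071, SE 0.11, limma adjusted p = 0.817). Its brain-type relative Aldoc averaged 31.9 ± 7.47 FPKM and 32.2 ± 3.48 FPKM. A second identifier named Aldoa, with a mean of 2.55 FPKM, was left out. Tpi1, which interconverts the products of that split, averaged 226 ± 22.6 FPKM and 259 ± 39.3 FPKM, with its highest value, 304.83 FPKM, in control replicate 1. Pgk1 and Pkm, which make ATP, averaged 113 ± 21.0 and 456 ± 32.5 FPKM in Emp1-deficient HSCs, and 108 ± 9.10 and 427 ± 44.8 FPKM in controls. The log2 difference of Pkm was 0.0988 (95% interval -0.17 to 0.37). Pgam1, the phosphoglycerate mutase between these steps, averaged 110 ± 5.46 FPKM and 121 ± 8.67 FPKM. Eno1 had 440.09, 354.79 and 412.44 FPKM in Emp1-deficient libraries and 403.71, 358.11 and 311.51 FPKM in controls (log2 difference 0.17, SE 0.13, limma adjusted p = 0.586), and the muscle enolase Eno3 averaged 5.68 ± 0.7055 FPKM and 5.30 ± 1.24 FPKM.

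Lactate dehydrogenase was Ldha by 91.6% to 94.4% of FPKM in Emp1-deficient libraries and by 90.3% to 92.9% in controls, with overlap. The log2 difference of Ldha was 0.077 (SE 0.11, 95% interval -0.17 to 0.33, limma adjusted p = 0.796). Ldhb, whose subunits are usually tied to the reverse reaction, had 62.90, 78.80 and 87.85 FPKM in Emp1-deficient libraries and 96.08, 93.95 and 72.08 FPKM in controls, a log2 difference of -0.19 (SE 0.15).

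The enzymes varied between libraries of one genotype as well. Control replicate 1 held the highest of the 3 control values for 14 of the 18 enzymes, and none of its 18 values was the lowest of the 6 libraries. Its median deviation from the 6-library mean was 0.10 on the log2 scale, beside -0.023 and -0.071 in control replicates 2 and 3. In Emp1-deficient replicates 1, 2 and 3 it was 0.077, -0.058 and -0.012. Apart from Hk2, Pfkm and Gapdh, each enzyme's libraries overlapped between the genotypes.

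Regulators and transporters of the pathway did not pass the test either. Pfkfb3, whose product drives phosphofructokinase, had 14.99, 21.30 and 15.63 FPKM in Emp1-deficient libraries and 15.26, 19.22 and 17.40 FPKM in controls (log2 difference -0.0096, SE 0.16, limma adjusted p = 0.985), and its relative Pfkfb4 averaged 7.96 ± 1.13 FPKM and 9.05 ± 1.98 FPKM. The glucose transporter Slc2a3 (55.00, 65.32 and 79.90 FPKM in Emp1-deficient libraries; 65.45, 59.11 and 54.71 FPKM in controls) exceeded Slc2a1 (35.37, 24.23 and 27.86 FPKM; 33.98, 26.62 and 31.39 FPKM) in every library. Slc2a3 took 69.3% ± 7.35 of their sum in Emp1-deficient HSCs and 66.1% ± 2.71 in controls (SD, n = 3 each), and its log2 difference was 0.14 (SE 0.14, adjusted p = 0.677 by limma). Slc16a1, a carrier of lactate and pyruvate, had 24.41, 19.74 and 23.24 FPKM in Emp1-deficient libraries and 21.56, 20.30 and 23.76 FPKM in controls (log2 difference 0.034, SE 0.12, limma adjusted p = 0.929). The lactate exporter Slc16a3 averaged 6.99 ± 2.66 FPKM and 6.49 ± 0.684 FPKM, with its highest value, 10.02 FPKM, in Emp1-deficient replicate 2. Pdk1 had 36.19, 34.90 and 34.40 FPKM in Emp1-deficient libraries and 31.40, 43.06 and 34.17 FPKM in controls, a log2 difference of -0.029 (SE 0.13, 95% interval -0.32 to 0.26, limma adjusted p = 0.942).

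Among HIF subunits, Hif1a stood at 31.21, 28.98 and 30.63 FPKM in Emp1-deficient libraries and at 28.80, 31.80 and 37.08 FPKM in controls, with overlap (log2 difference -0.095, SE 0.12, 95% interval -0.36 to 0.17, limma adjusted p = 0.757). Arnt, its partner, stood at 21.10, 23.76 and 24.02 FPKM in Emp1-deficient libraries and at 26.00, 25.68 and 25.70 FPKM in controls. Arnt was lower in each, by a small margin (log2 difference -0.16, SE 0.11, limma adjusted p = 0.498). Epas1, the alpha subunit best known from endothelium, was near the bottom of the table, at 0.13, 0.30 and 0.35 FPKM in Emp1-deficient libraries and 0.30, 0.20 and 1.16 FPKM in controls. Hif1a transcripts thus exceeded those of Epas1 by FPKM in all 6 libraries. HIF protein is set mostly by its breakdown, which RNA levels do not show.

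Of the oxygen-sensing genes, Vhl had 21.58, 15.69 and 21.53 FPKM in Emp1-deficient libraries and 15.87, 18.54 and 21.44 FPKM in controls (log2 difference 0.066, SE 0.16, limma adjusted p = 0.890). Egln1, the main HIF prolyl hydroxylase, averaged 2.30 ± 0.467 FPKM and 2.05 ± 0.565 FPKM, and Egln3, itself a hypoxia target, 5.74 ± 1.58 FPKM and 6.75 ± 1.10 FPKM. All 3 overlapped between the genotypes.

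The hypoxia targets stood on both sides of 0. P4ha1 (ENSMUSG00000019916, chromosome 10, 59323296 to 59373304), a catalytic subunit of the prolyl hydroxylase that matures collagen, was the member with the smallest p. It stood at 5.23, 6.81 and 5.06 FPKM in Emp1-deficient libraries and at 10.02, 11.81 and 10.62 FPKM in controls. All Emp1-deficient libraries lay below all controls, and the mean was 47.3% lower. The log2 difference was -0.83 (SE 0.16, 95% interval -1.18 to -0.47), with an unadjusted p of 0.000541 and a limma adjusted p of 0.0740. In the test limited to protein-coding genes it passed (limma adjusted p = 0.0353), within a range of 0.0353 to 0.265 over 15 alternatives. Its relative P4ha2, below the filter and not tested, was at 0.65, 0.17 and 0.18 FPKM in Emp1-deficient libraries and at 0.72, 0.67 and 1.03 FPKM in controls, also without overlap, although replicate 1 was close to the controls.

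The other targets stood the other way or overlapped. Bnip3, a mitophagy receptor, had 31.07, 35.01 and 32.58 FPKM in Emp1-deficient libraries and 28.76, 31.13 and 28.54 FPKM in controls (log2 difference 0.15, SE 0.10, limma adjusted p = 0.519). Vegfa, the vascular growth factor, had 6.59, 11.43 and 7.10 FPKM and 5.64, 6.63 and 7.43 FPKM, with replicate 2 of the Emp1-deficient libraries the highest. Ankrd37, a small hypoxia-induced gene, averaged 3.68 ± 1.58 FPKM and 3.93 ± 0.7715 FPKM.

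**Figure D4:**
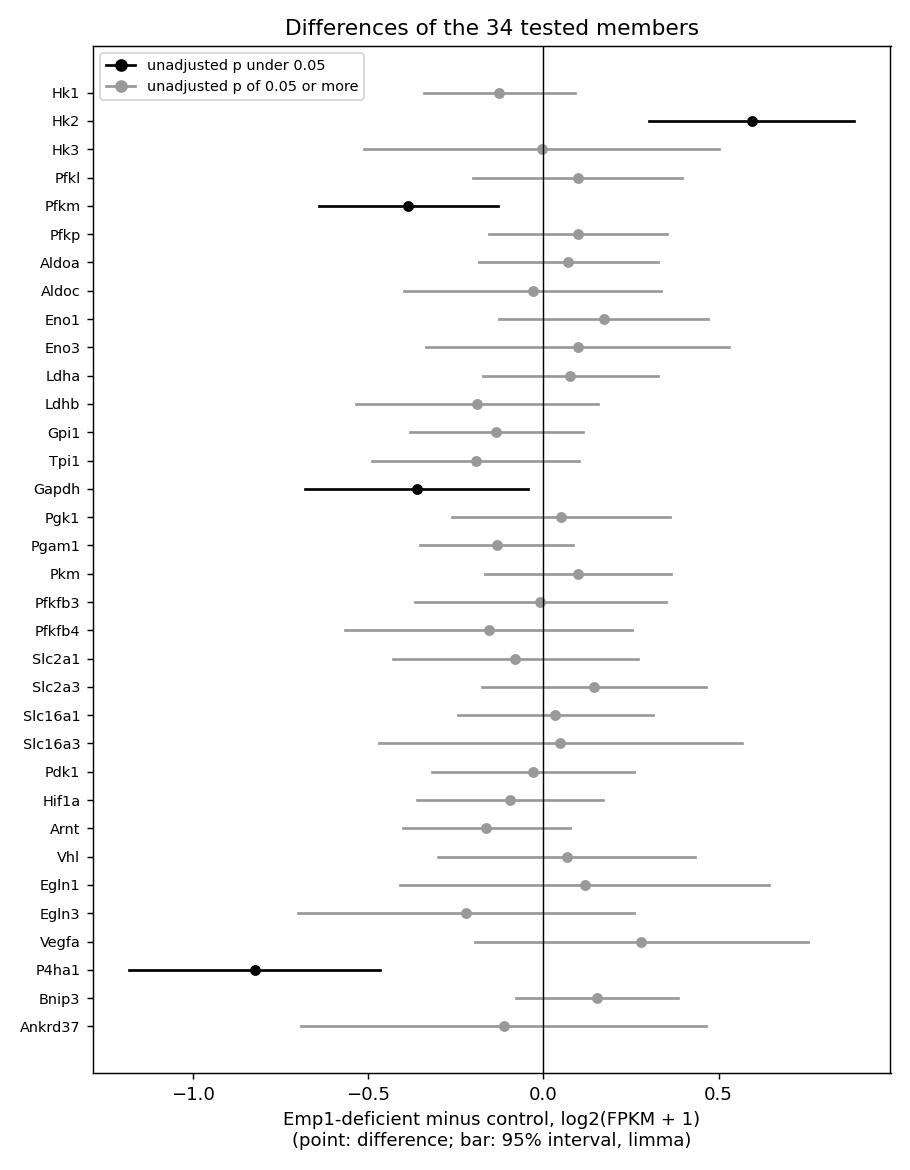
Difference of each of the 34 tested members, Emp1-deficient minus control in log2(FPKM + 1), with its 95% interval from limma. Black marks the 4 members with an unadjusted p under 0.05 (Hk2 at 0.59, Pfkm at -0.39, Gapdh at -0.36 and P4ha1 at -0.83), and grey the other 30.

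Around the members, 80 other genes of the same pathways were listed, of which 65 were tested. By limma 0 of them passed in either direction. At an unadjusted p under 0.05, 8 were higher (beside 6.5% of all genes) and 11 lower (beside 9.72%), or 29.2% beside 16.2%. Their median log2 difference was -0.0019.

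Among 23 other hypoxia genes tested, 4 were higher (beside 6.5% of all genes) and 3 lower (beside 9.72%) at an unadjusted p under 0.05. Together they made up 30.4%, beside 16.2% of all genes. Bhlhe40, a transcriptional repressor induced by hypoxia, stood at 135.73, 168.06 and 179.14 FPKM in Emp1-deficient libraries and at 69.33, 91.51 and 94.43 FPKM in controls (log2 difference 0.92, SE 0.15, limma adjusted p = 0.0549, range 0.0185 to 0.204 over 15 alternatives). Cited2, which competes with HIF for the coactivator p300, stood at 5.81, 6.70 and 6.48 FPKM and at 12.84, 11.10 and 9.94 FPKM (-0.74, SE 0.15, limma adjusted p = 0.0796). The genotypes overlapped for neither gene. Hmox1, the heme oxygenase, stood at 18.84, 6.81 and 6.76 FPKM in Emp1-deficient libraries and at 27.38, 27.30 and 41.56 FPKM in controls (-1.61, SE 0.41, limma adjusted p = 0.161). Without Emp1-deficient replicate 1 it was -2.06 (limma adjusted p = 0.00900, range 0.00900 to 0.415 over 15 alternatives). Hmox1 is also high in macrophages, whose marker C1qa stood at 73.75, 16.66 and 21.49 FPKM in Emp1-deficient libraries and at 59.68, 48.49 and 92.82 FPKM in controls. The genotypes overlapped for C1qa. The summed monocyte and macrophage list of 10 genes ran from 389 to 543 FPKM and from 495 to 536 FPKM. Its largest part was Lyz2, with means of 264 and 278 FPKM. In the list 2 genes did not overlap, both lower in Emp1-deficient libraries, Csf1r (means 3.81 and 8.77 FPKM) and Irf8 (6.25 and 14.4 FPKM). The means of Cd68 (32.5 and 31.1 FPKM) and Ly6c2 (8.74 and 6.85 FPKM) stood the other way, with overlap. The part of such cells in the result was not tested.

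Among 14 tested HIF regulators, Hif3a, an inhibitory alpha subunit, was at 1.42, 0.89 and 0.53 FPKM in Emp1-deficient libraries and at 2.30, 3.35 and 2.41 FPKM in controls (-0.94, SE 0.26, limma adjusted p = 0.138). Eloc, an adaptor of the Vhl ligase, averaged 132 ± 8.27 FPKM and 101 ± 10.1 FPKM (0.38, adjusted p = 0.140 by limma), and the prolyl hydroxylase gene Egln2 45.4 ± 2.08 FPKM and 55.4 ± 3.99 FPKM (-0.28, adjusted p = 0.213 by limma).

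The pentose phosphate pathway branches off after hexokinase to make NADPH and ribose. Of its 8 genes, all tested, 7 had a negative difference on the authors' scale, beside 8950 of all 15723 tested genes. Their median was -0.26 beside -0.046 over all genes. An unadjusted p under 0.05 was reached by 3, all lower (37.5%, beside 9.72% of all genes). Pgls, the lactonase, averaged 96.1 ± 17.5 FPKM in Emp1-deficient HSCs and 127 ± 5.71 FPKM in controls (-0.41, adjusted p = 0.182 by limma), Pgd 45.5 ± 3.71 and 55.6 ± 2.99 FPKM, and G6pdx, the entry enzyme, 29.9 ± 1.10 and 36.5 ± 3.73 FPKM. The summed level of the 8 genes overlapped, with 717.9, 593 and 587 FPKM and with 785, 701 and 723 FPKM.

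Of 12 tested genes of pyruvate entry and pyruvate dehydrogenase, 10 had a positive difference on the authors' scale, beside 6773 of all 15723 tested genes. Their median was 0.10 beside -0.046 over all genes. An unadjusted p under 0.05 was reached by 2, both higher (16.7%, beside 6.5% of all genes higher and 16.2% in either direction). The libraries did not overlap for 4 higher and 1 lower (41.7%, beside 22.1% of all genes in either direction). Mpc1, a subunit of the mitochondrial pyruvate carrier, averaged 104 ± 12.2 FPKM and 84.0 ± 3.71 FPKM (0.30, adjusted p = 0.222 by limma), its partner Mpc2 60.3 ± 2.23 and 54.0 ± 1.34 FPKM, and the dehydrogenase subunit Pdhb 195 ± 15.4 and 163 ± 5.91 FPKM. Of the other isoforms of glycolysis, 9 of 16 were tested and 3 had an unadjusted p under 0.05 (33.3%, beside 16.2% of all genes). These were Minpp1, a phosphatase, with 29.8 ± 1.66 and 36.9 ± 0.381 FPKM, Bpgm, which makes 2,3-bisphosphoglycerate, with 34.2 ± 2.26 and 28.4 ± 1.77 FPKM, and the neuronal enolase Eno2, with 1.82 ± 0.7002 and 3.35 ± 0.903 FPKM.

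**Figure D5:**
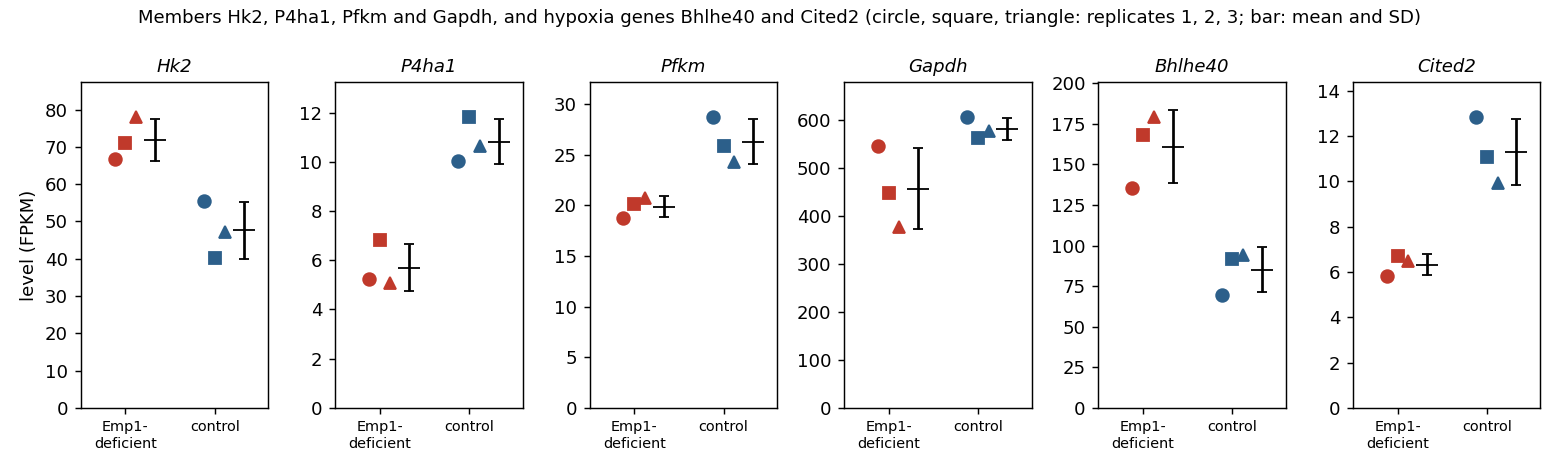
Level (FPKM) of 4 members and 2 other hypoxia genes in each library, Emp1-deficient (red) left of control (blue), with the mean and SD of 3 libraries beside the points. In all 6 panels no Emp1-deficient point falls within the range of the controls, while none of these genes passed the adjusted threshold over all genes.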

How the data were processed

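RNA of sorted HSCs was measured in 3 Emp1-deficient and 3 control libraries, grouped by the genotype in the labels. Per the labels' protocols, mRNA was copied and amplified with the low-input Geo-seq method before library construction. The values are the authors' deposited FPKM with 2 decimals. The genome was mm10 and the tools listed were DESeq2, HTSeq, Cufflinks 2.1.1 and Bowtie 0.12.9, per the submitters' processing notes, which give neither roles nor settings. FPKM are relative to each library's total, so a transcript that takes more lowers the others, and amplification adds scatter. Absolute depth is unknown, so no counting intervals are given; relative depth came from the lowest values of single-exon genes.

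Symbols and positions came from GENCODE M21 (GRCm38, the assembly of mm10), which matched 55141 of 55401 identifiers; promoters came from RefSeq (GRCm38.p6). The 15723 genes that reached 1 FPKM in 3 libraries (Emp1 kept in) entered limma 3.58.1 (R 4.3.3) as log2(FPKM + 1) (trend and robust, two-sided, genotype the only term), with Benjamini-Hochberg adjustment over all of them. The fit was tested on simulated data. Members and lists were chosen with earlier results of these data known, so no list was tested. Named in full were members with an unadjusted p under 0.05, without overlap or leading their role. Of each other list, up to 3 genes with the smallest p were named. C1qa and the other single genes named from marker lists of other cells were named after their values were seen. One marker of the HSC list is not reported here. Alternatives were the pseudocount, the filter, the scaling, the genes tested, the replicate block and leaving out each library. Replicate numbers did not pair the samples.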

Additional observations from a re-analysis of the deposited data

How the results depend on the processing

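In 15 alternatives, 0 members were called except when only protein-coding genes of 400 bp of exon or more were tested, where 1 was higher (Hk2) and 1 lower (P4ha1). Other pathway genes were called there (1 higher, Bhlhe40, and 1 lower, Cited2), with a mean of at least 5 FPKM (1 higher), with the replicate block (1 higher) and without Emp1-deficient replicate 1 (1 higher, 1 lower; 0 to 1 over the libraries left out). Hk2, Pfkm, Gapdh and P4ha1 kept their direction in all 15, which the lack of overlap fixes when a library is left out. Over the whole table, 25 genes were higher and 17 lower. The counts were 14 higher at pseudocount 0.1, 6 and 9 at pseudocount 5, 2 and 3 with no filter, 46 and 58 with a mean of at least 5 FPKM, 70 and 142 among protein-coding genes, 11 higher and 13 lower after rescaling to TPM, 17 and 8 with median-of-ratios scaling, 14 and 10 after quantile normalization, and 6 and 2 with the replicate block. With each library left out they ran from 3 to 20 higher and from 2 to 20 lower. The replicate numbers did not pair the samples (correlation of deviations -0.11, 0.086 and -0.052). The members' median of -0.0071 was -0.055 after rescaling to TPM, 0.092 with median-of-ratios scaling, and from -0.022 to 0.036 with a library left out.

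Members near 0 with no call changed sign. With median-of-ratios scaling this was so for Hk3 (0.093), Aldoc (0.073), Pfkfb3 (0.092), Slc2a1 (0.023), Pdk1 (0.075) and Hif1a (0.0088). It was so after quantile normalization for Hk3 (0.070), Pgk1 (-0.026) and Pfkfb3 (0.044), and after rescaling to TPM for Pgk1 (-0.00012) and Slc16a1 (-0.014). Median-of-ratios scaling and TPM divide each library by its own factor, which moves the differences of all genes together. The median over all tested genes was -0.046 on the authors' scale, 0.046 with median-of-ratios scaling and -0.093 after rescaling to TPM. The cause of the sign changes in the other settings was not tested. With a library left out, the values ran from -0.21 to 0.20 for Hk3, -0.21 to 0.070 for Aldoc, -0.045 to 0.24 for Eno3, -0.10 to 0.13 for Pgk1, -0.16 to 0.080 for Pfkfb3, -0.22 to 0.040 for Slc2a1, -0.026 to 0.12 for Slc16a1, -0.21 to 0.23 for Slc16a3, -0.12 to 0.10 for Pdk1, -0.038 to 0.21 for Vhl, -0.033 to 0.24 for Egln1 and -0.38 to 0.032 for Ankrd37.

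Depth limits what low members can show. Epas1 and P4ha2, below 1 FPKM in most libraries, have the least precise values, and no counting interval can be given without absolute depth. A missed threshold does not show that levels were equal.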
